A study of Rattus norvegicus with 8 samples.

Results

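Fibronectin (Fn1), periostin (Postn), matrix Gla protein (Mgp) and tenascin-C (Tnc) are 4 secreted proteins of the extracellular matrix. Every probe set whose only gene symbol was 1 of these 4 was taken, which gave 10 of the 8799 probe sets on the array: 5 for Fn1, 3 for Tnc and 1 each for Postn and Mgp. A probe set is a group of short oligonucleotides read as 1 signal for a transcript. The 4 genes are among 4737 that have a probe set of their own on this array. The signals came from rat medial collateral ligament, the band on the inner side of the knee, on 8 arrays in 4 groups of 2, and the title asks how hindlimb unloading changes ligament healing. Unloaded healing rats had the ligament disrupted on both sides and were suspended by the tail from 24 h after surgery, so that the hind legs bore no weight. Loaded healing rats had the same injury and bore weight. Unloaded control rats were suspended without any sham operation, whereas loaded control rats had a sham operation and bore weight, so unloading and sham surgery cannot be told apart between the control groups. Ligaments were taken after 3 weeks in all groups. The labels give no strain, age or sex, and do not state if the pair of arrays in each group came from separate animals, from pools or from 1 sample measured again, so the errors below measure the spread between arrays, which may be technical.

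Fibronectin is a dimeric glycoprotein that circulates in plasma and is also made by fibroblasts. It enters the clot and the early wound matrix, binds integrins and collagen, and is alternatively spliced. Periostin and tenascin-C are matricellular proteins, that is, matrix proteins that act on cells and on matrix assembly more than they bear load, and both are known from tendon and ligament as genes of injured or mechanically stressed tissue. Matrix Gla protein is a small vitamin K-dependent protein that inhibits calcification of soft tissue.

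The summed signal of ligament matrix markers was lower in 1 group, the unloaded controls, than in the other 3 groups. Tendon and ligament markers with a probe set of their own numbered 9 of 12, and their summed signal was 53234 to 69856 in unloaded healing, 106505 to 125494 in loaded healing, 3411 to 4081.5 in unloaded control and 91207 to 112731 in loaded control. The transcription factors Scx and Mkx and the membrane protein Tnmd are on the list but had no probe set of their own. They were not analysed here, so the markers read were all matrix genes. Col1a1 made up most of each sum outside the unloaded controls. In those, Bgn (1298 and 922.3) and Col1a2 (839.7 and 816.3) still lay above the array medians of 313.6 and 315.9. Between loaded healing and loaded control, 2 of 9 tested markers were called lower, Comp and Bgn, where 52 of all 5244 probe sets were, and 5 had a positive difference. By these sums the unloaded control arrays stood apart. Their Pearson correlation with the other 6 arrays was 0.492 to 0.608 over the tested probe sets, against 0.761 to 0.872 among those 6, and their actin 5'/3' control ratios, a sign of RNA or labelling quality, were 0.964 and 0.634, against 0.237 to 0.529 elsewhere, while their GAPDH 5'/3' ratios of 0.953 and 0.712 spanned the range of 0.729 to 0.896 elsewhere. The loaded healing arrays read low for 2 control transcripts. Their actin 3' signals were 1353 and 1597, against 4393 to 5235 in unloaded healing and loaded control. The unloaded controls were as low for actin 3', at 1284 and 1494, so this was not particular to loaded healing. The GAPDH 3' signals of loaded healing were 1038.5 and 842.6, against 1872 to 2335 in the other 3 groups. The part of these differences in the results was not tested. Summed signals of markers of other cell types were as follows. Macrophage and myeloid markers (11 of 14) summed to 10583 to 10797 in unloaded healing, 38128 to 46325 in loaded healing, 6069 to 6109.5 in unloaded control and 9179 to 9551 in loaded control. Skeletal muscle markers (13 of 15) summed to 14539.7 to 16629, 16173 to 21427, 6979.6 to 7843 and 12394 to 12455 in the same order of groups, and erythroid markers (3 of 5) to 6384 to 7495, 3802 to 4801, 1667.5 to 3128 and 2030.4 to 3482.5. Adipocyte markers (5 of 6) summed to 8565 to 12579, 14272 to 15118, 13717 to 14009 and 11085 to 12852 in that order. Lep made up most of each adipocyte sum and overlapped between the healing groups. Lpl read 1109 and 1409 in unloaded healing and 5236 and 5422 in loaded healing, and Fabp4 40.4 and 58.7 against 735.5 and 592.7. Nerve markers (3 of 5) summed to 1280.2 to 1452, 1640.3 to 2335, 1866 to 2350 and 1032 to 1814. Between the healing groups the sums of cartilage and bone (5 of 8), vascular (9 of 10) and liver and plasma markers (6 of 7) overlapped. The vascular sums held Kdr, which read 244.7 and 3546 in unloaded healing and 256.9 and 3450.2 in loaded healing. Acta2 (838.8 and 722.7 against 1998.5 and 1415) and Tagln (535.5 and 414 against 1159 and 899.1) were lower in unloaded healing. Of 8 tested vascular markers 1 was called lower there, Nos3 (log2 -1.49, limma adjusted p = 0.0439), where 0.858% of all probe sets were. Of the same 8, 4 had a positive difference. In bulk tissue, fewer cells of a type and less RNA per cell cannot be told apart.

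Fn1 was highest in the weight-bearing healing ligament on its brightest probe set, X05834_at. This probe set read 1705 and 1289 in unloaded healing, 6587 and 5062 in loaded healing, 649.2 and 510.7 in unloaded control and 2209 and 2244 in loaded control. No 2 groups overlapped. The means were 1497 ± 294, 5825 ± 1078, 579.95 ± 97.9 and 2226 ± 25.2 (SD, n = 2 each). In loaded rats Fn1 rose 2.56-fold with healing (log2 1.36 ± 0.25 SE, 95% confidence interval 0.79 to 1.92, limma adjusted p = 0.0261). Among healing ligaments it fell 3.81-fold under unloading (log2 -1.93 ± 0.25, 95% confidence interval -2.49 to -1.37, limma adjusted p = 0.00442), which ranked 23 by p among the 5244 probe sets tested. These fold changes are of signal plus an offset of 45.8 and share the loaded healing arrays, with opposite sign. Set against loaded control, unloaded healing lay lower on both arrays, by a log2 difference of -0.57 (95% confidence interval -1.13 to -0.01), which did not pass the threshold (limma adjusted p = 0.871).

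Of the other 4 Fn1 probe sets, 3 did not show this pattern and the dimmest, M28259cds_at, showed it in part. U82612cds_at read 496.9 and 1028 in unloaded healing, 440 and 508.9 in loaded healing, 1098 and 877 in unloaded control and 534.6 and 352.9 in loaded control. Its mean was thus highest in the unloaded controls, where X05834_at was lowest, and the groups of each healing comparison overlapped. Its log2 difference was 0.11 ± 0.43 between loaded healing and loaded control and 0.56 ± 0.43 between unloaded and loaded healing (limma adjusted p = 0.975 and 0.716). U82612cds_g_at, drawn from the same sequence record, read 226.5 and 309.1 in unloaded healing, 250 and 104.7 in loaded healing, 139.5 and 253.1 in unloaded control and 437.1 and 318.2 in loaded control. On it loaded healing lay below loaded control (log2 -0.99 ± 0.57, limma adjusted p = 0.590), the opposite direction to X05834_at.

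2 further Fn1 probe sets were too dim to be tested, since probe sets in the lowest 40% by mean log2 signal, which ended at 190.6 on the signal scale, were removed. X05831cds_at read 174.5 and 94 in unloaded healing, 66.7 and 52.8 in loaded healing, 122.6 and 257.5 in unloaded control and 258.6 and 423.9 in loaded control. Both loaded healing arrays lay below those of every other group, and fitted without the filter the log2 difference from loaded control was -1.84 ± 0.54 (limma adjusted p = 0.239). M28259cds_at read 49 and 61, 144.2 and 67.3, 86.3 and 66.5, and 73.4 and 94.2 in the same order of groups. Its mean was highest in loaded healing, at 105.75, through 1 of the 2 arrays, and unloaded healing lay wholly below loaded healing, whereas the control groups overlapped. Unloaded healing also lay wholly below unloaded control on this probe set, the opposite direction to X05834_at. Fitted without the filter, the log2 difference between unloaded and loaded healing was -0.54 ± 0.39 (limma adjusted p = 0.755).

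Over the 8 arrays the log2 signals of X05834_at and U82612cds_at had a Pearson correlation of -0.75, those of X05834_at and U82612cds_g_at one of -0.07, and those of X05834_at and X05831cds_at one of -0.43. With M28259cds_at it was 0.46. Disagreement between probe sets of 1 gene was common on this array. Over 1201 pairs of tested probe sets from 741 genes, the median correlation was 0.16 and 37.1% of pairs lay below 0, while 1.17% were at or below the lowest of the Fn1 pairs. In the comparison of the healing groups, 48.5% of these pairs had opposite signs. The pairs share arrays, and pairs of 1 gene share probe sets. Which exons or splice forms each Fn1 probe set reads is not given in the sources used here, so no Fn1 value below is for the gene as a whole.

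**Figure D1:**
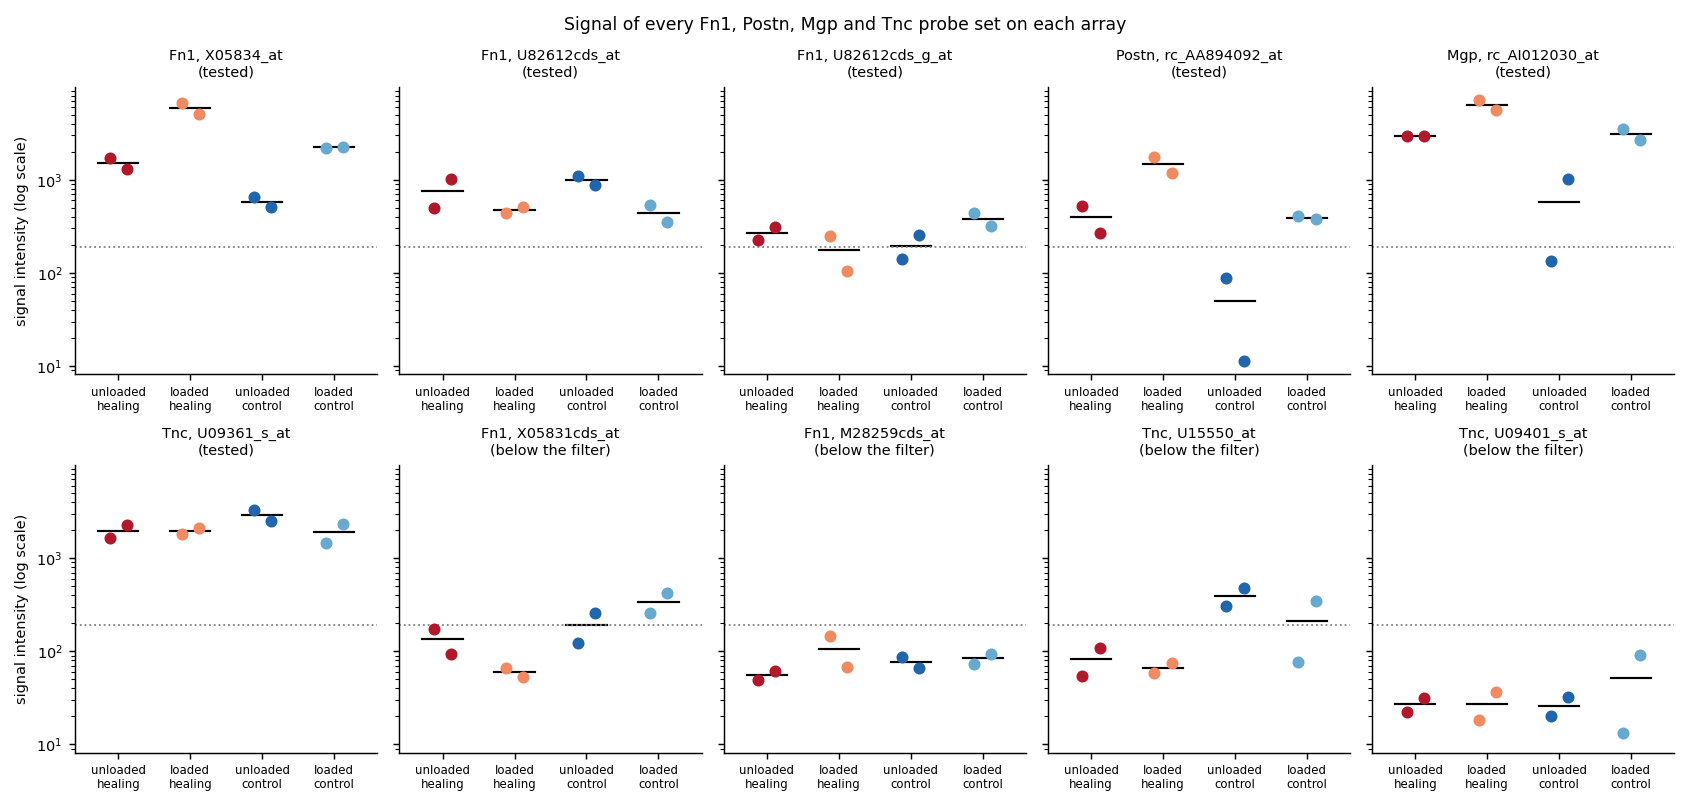
Signal intensity on a log scale of all 10 Fn1, Postn, Mgp and Tnc probe sets on each of the 8 arrays, with 1 point per array and a black bar at each group mean. The dotted line marks the signal of 190.6 that corresponds to the filter. X05834_at, Postn and Mgp were highest in loaded healing, while the brightest Tnc probe set lay between 1457 and 3270.2 on every array.

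Postn, like Fn1 X05834_at, was highest in loaded healing and lowest in unloaded control, but its unloaded healing mean of 396.3 did not lie below the loaded control mean of 393.4. Its probe set, rc_AA894092_at, read 527.4 and 265.2 in unloaded healing, 1774 and 1180.2 in loaded healing, 88.9 and 11.3 in unloaded control and 405.7 and 381.1 in loaded control. Both loaded healing arrays lay above all others, and the unloaded healing arrays straddled the loaded controls. Loaded healing exceeded loaded control by a log2 difference of 1.77 ± 0.57 (3.40-fold, 95% confidence interval 0.50 to 3.03), with an unadjusted p of 0.0113 and a limma adjusted p of 0.200. Unloaded healing stood below loaded healing by a log2 difference of -1.82 ± 0.57 (95% confidence interval -3.09 to -0.56, unadjusted p = 0.00953, limma adjusted p = 0.206). Neither passed over all probe sets. Between unloaded healing and loaded control the log2 difference was -0.06, with a 95% confidence interval of -1.32 to 1.21.

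Postn was near the bottom of the signal range in the unloaded controls. Against loaded control it fell 5.01-fold there (log2 -2.32 ± 0.57, limma adjusted p = 0.0363), and unloaded healing rose 4.81-fold over unloaded control (log2 2.27 ± 0.57, limma adjusted p = 0.0382). Without unloaded control 2, whose signal of 11.3 was the lower one, these differences were -1.70 (limma adjusted p = 0.225) and 1.65 (limma adjusted p = 0.220), so both calls ended. With each array left out in turn, the first passed in 3 of 8 fits and the second in 2 of 8. The size also moved with the offset, since the unloaded control signals lie near or below it. With an offset 4 times as large the differences were -1.33 and 1.29 (limma adjusted p = 0.0704 and 0.0696), and with no filter the adjusted p-values were 0.0596 and 0.0616. No detection calls accompany the values, so whether 11.3 is above background is not known.

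Mgp was likewise highest in loaded healing. Its probe set, rc_AI012030_at, read 2954 and 2962 in unloaded healing, 7187 and 5539 in loaded healing, 135.2 and 1009.6 in unloaded control and 3529 and 2646.5 in loaded control. Unloaded healing lay within the range of loaded control. The log2 difference was 1.03 ± 0.62 between loaded healing and loaded control (2.05-fold, 95% confidence interval -0.35 to 2.42, limma adjusted p = 0.611) and -1.08 ± 0.62 between unloaded and loaded healing (95% confidence interval -2.46 to 0.30, limma adjusted p = 0.596).

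The spread used for Mgp came largely from the unloaded controls, whose SD was 1.80 on the log2 scale, against 0.003 to 0.29 in the other groups. In a fit without the unloaded control group, the same log2 difference of -1.08 between unloaded and loaded healing passed (limma adjusted p = 0.0464), and that of 1.03 between loaded healing and loaded control came to an adjusted p of 0.0502. In the fit to all 8 arrays, Mgp fell 7.10-fold in unloaded against loaded control (log2 -2.83 ± 0.62, limma adjusted p = 0.0197) and rose 6.87-fold in unloaded healing against unloaded control (log2 2.78 ± 0.62, limma adjusted p = 0.0204). Leaving out unloaded control 1 gave -1.56 and 1.51, and leaving out unloaded control 2 gave -4.10 and 4.05, with both calls kept in either case. The fall missed the threshold without loaded control 1 or 2 (limma adjusted p = 0.125 and 0.0695) and the rise without unloaded healing 1 or 2 (limma adjusted p = 0.0854 and 0.0901). The size of these 2 differences therefore rested on which unloaded control array was read.

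Tnc showed no group difference past the threshold. Its brightest probe set, U09361_s_at, read 1656 and 2286 in unloaded healing, 1829 and 2120.5 in loaded healing, 3270.2 and 2473 in unloaded control and 1457 and 2312 in loaded control. The loaded healing arrays lay inside the range of loaded control. The log2 difference was 0.10 ± 0.29 between loaded healing and loaded control (95% confidence interval -0.54 to 0.74) and -0.02 ± 0.29 between unloaded and loaded healing (95% confidence interval -0.65 to 0.62), with limma adjusted p-values of 0.963 and 0.990. A change of 1 log2 unit in either direction lies outside both intervals.

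In the unloaded controls, where Fn1 X05834_at, Postn and Mgp were lowest, Tnc U09361_s_at was highest, by a log2 difference of 0.62 ± 0.29 from loaded control (limma adjusted p = 0.297). After quantile normalization this difference was 1.13 and passed (limma adjusted p = 0.0452). The suffix _s marks a probe set whose probes may match more than 1 transcript, in the manufacturer's naming. The other 2 Tnc probe sets were below the filter. U15550_at read 54.9 and 109 in unloaded healing, 59 and 74.2 in loaded healing, 308.7 and 475.3 in unloaded control and 75.8 and 343 in loaded control. It too was higher in the unloaded controls than in healing ligaments, while the control groups overlapped. Both loaded healing arrays of U15550_at lay below those of loaded control, narrowly for the nearest pair. Fitted without the filter, that log2 difference was -0.96 ± 0.63 (limma adjusted p = 0.724). Between unloaded healing and unloaded control it was -1.78 ± 0.63 (limma adjusted p = 0.215). U09401_s_at stayed between 13.1 and 90.1 on all arrays, with overlap in every comparison.

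Across the 4 genes, 6 of the 5244 tested probe sets were theirs, and their ranges and calls can be read against those of all. In loaded healing against loaded control, 3 of the 6 lay wholly above (X05834_at, Postn and Mgp), where 19.4% of all probe sets did, and 1 wholly below, where 20.3% did. In unloaded against loaded healing the same 3 lay wholly below, where 18.4% did, and 0 above, where 21.3% did. By the test the counts were smaller. Between loaded healing and loaded control 1 of 6 was called higher, X05834_at, where 1.03% of all probe sets were. Between unloaded and loaded healing 1 of 6 was called lower, X05834_at again, where 0.858% were. Between unloaded control and loaded control 3 of 6 were called lower (X05834_at, Postn and Mgp), where 6.22% were, and the same 3 were called higher in unloaded healing against unloaded control, where 6.41% were. Both comparisons use the unloaded control arrays, on which the summed ligament markers were also lowest, with 9 of 9 tested markers called lower than in loaded control.

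Against loaded control, unloaded healing had 0 of 6 called by limma, where 0.0763% of all probe sets were, and 1 of 6 had an unadjusted p below 0.05, X05834_at, where 5.55% did. The intervals of Postn and Mgp in this comparison reached beyond 1 log2 unit on both sides, so a change of 2-fold either way lay inside them. The healing effect in unloaded rats minus that in loaded rats compares the difference between healing and control across loading states, and it also holds the sham operation, which the unloaded controls lacked. None of the 6 passed this interaction test, where 4.84% of all probe sets did, and 0 had an unadjusted p below 0.05, where 12.9% did. For X05834_at the interaction was -0.06 ± 0.36 (95% confidence interval -0.86 to 0.74), beside a rise of 2.46-fold over unloaded control in unloaded rats (limma adjusted p = 0.00881). That rise missed the threshold without unloaded control 2 (limma adjusted p = 0.0653) and without unloaded healing 1 (limma adjusted p = 0.0686). For Mgp it was 1.75 ± 0.88 (95% confidence interval -0.21 to 3.70, limma adjusted p = 0.468), and without unloaded control 2 it was 3.02 (limma adjusted p = 0.00104). That interaction rests on the unloaded controls.

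**Figure D2:**
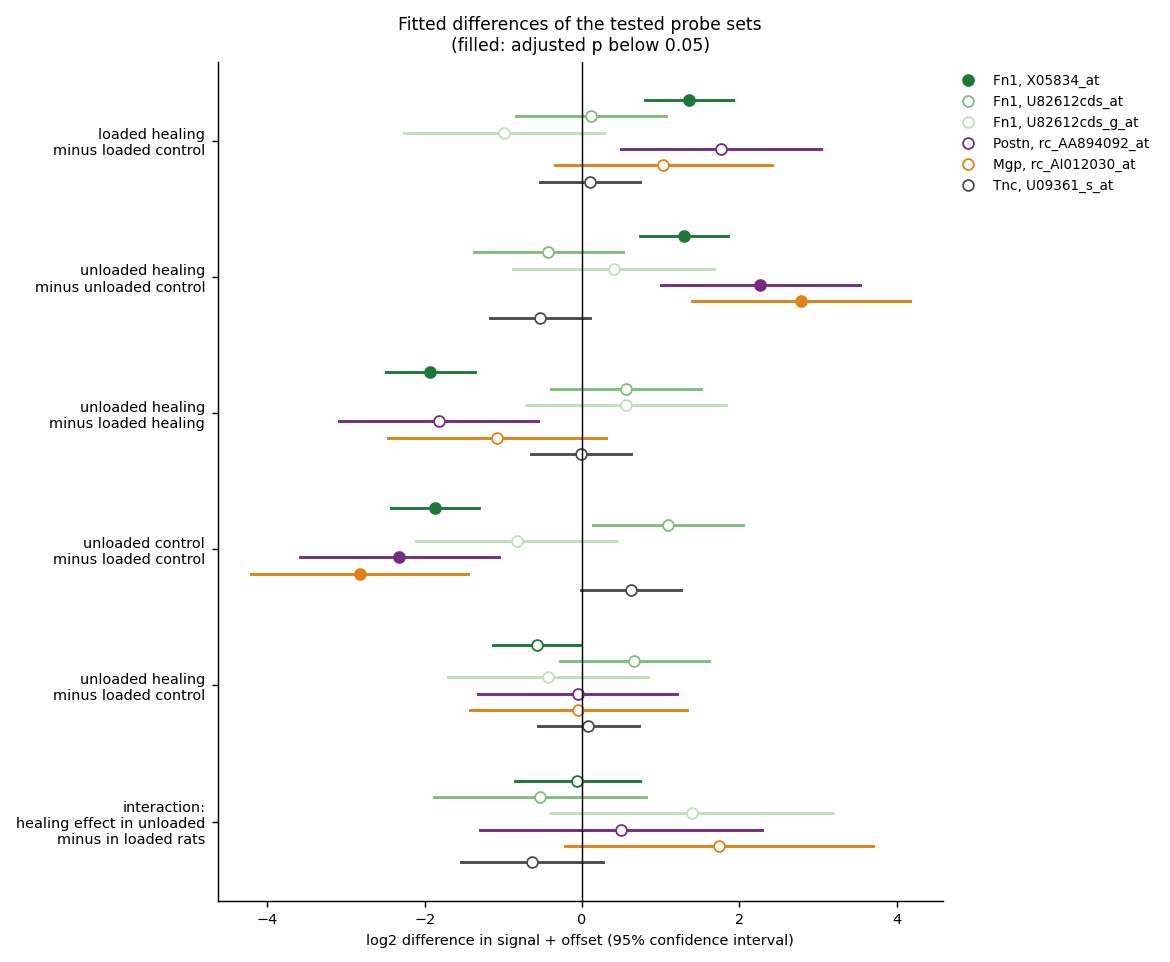
Fitted log2 differences of the 6 tested probe sets in 6 comparisons, with 95% confidence intervals as bars and filled points for an adjusted p below 0.05. X05834_at was called in 4 comparisons, Postn and Mgp in the 2 that use the unloaded controls, and the other 3 probe sets in none.

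Macrophage markers differed between the healing groups as well. Their summed signal was 10583 to 10797 in unloaded healing and 38128 to 46325 in loaded healing. Under unloading 5 of 9 tested macrophage markers were called lower, among them Lyz2 (log2 -2.60) and Spp1 (log2 -3.78), where 0.858% of all probe sets were. The receptor Csf1r, a defining macrophage gene, read 56.2 to 99.8 on all 8 arrays. Not every bright marker fell. Cd74 read 908.2 and 835.2 in unloaded healing and 918.5 and 854.6 in loaded healing, and so overlapped. Cd14 overlapped too, at 1118 and 1342 against 986.4 and 1391.5, as did Ptprc, at 859.2 and 367.2 against 953.9 and 719. Tendon and ligament markers were lower in the same comparison, with a median log2 difference of -0.92 against 0.06 over all probe sets. Of 9 tested, 2 were called lower, Col1a2 (log2 -1.99) and Col3a1 (log2 -1.20), 0 were called higher and 3 had a positive difference. The part of either set of markers in the Fn1, Postn and Mgp values was not tested.

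How far the calls rested on single arrays was read by leaving out each array in turn. The fall of X05834_at under unloading in healing stayed between -2.12 and -1.73 and passed in 6 of 8 fits. It missed the threshold without loaded healing 1 (log2 -1.74, limma adjusted p = 0.0838) and without unloaded healing 2 (log2 -1.73, limma adjusted p = 0.0527). Its rise with healing in loaded rats lay between 1.17 and 1.55 and passed in 4 of 8 fits. It missed the threshold when any of the 4 arrays compared was left out, with adjusted p-values of 0.237 without loaded healing 1, 0.0944 without loaded healing 2, 0.150 without loaded control 1 and 0.152 without loaded control 2. Its fall in unloaded against loaded control passed in 8 of 8 fits, at -2.03 to -1.71. With all 8 arrays, a variance prior without the intensity trend also ended the calls of X05834_at in unloaded against loaded healing (limma adjusted p = 0.0678) and in loaded healing against loaded control (limma adjusted p = 0.161), and median centring (0.0923) and no filter (0.0567) ended the second. The Postn difference between loaded healing and loaded control kept its sign in all 8 fits, at 1.48 to 2.05, and that of Mgp at 0.83 to 1.24, and neither passed in any of them.

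**Figure D3:**
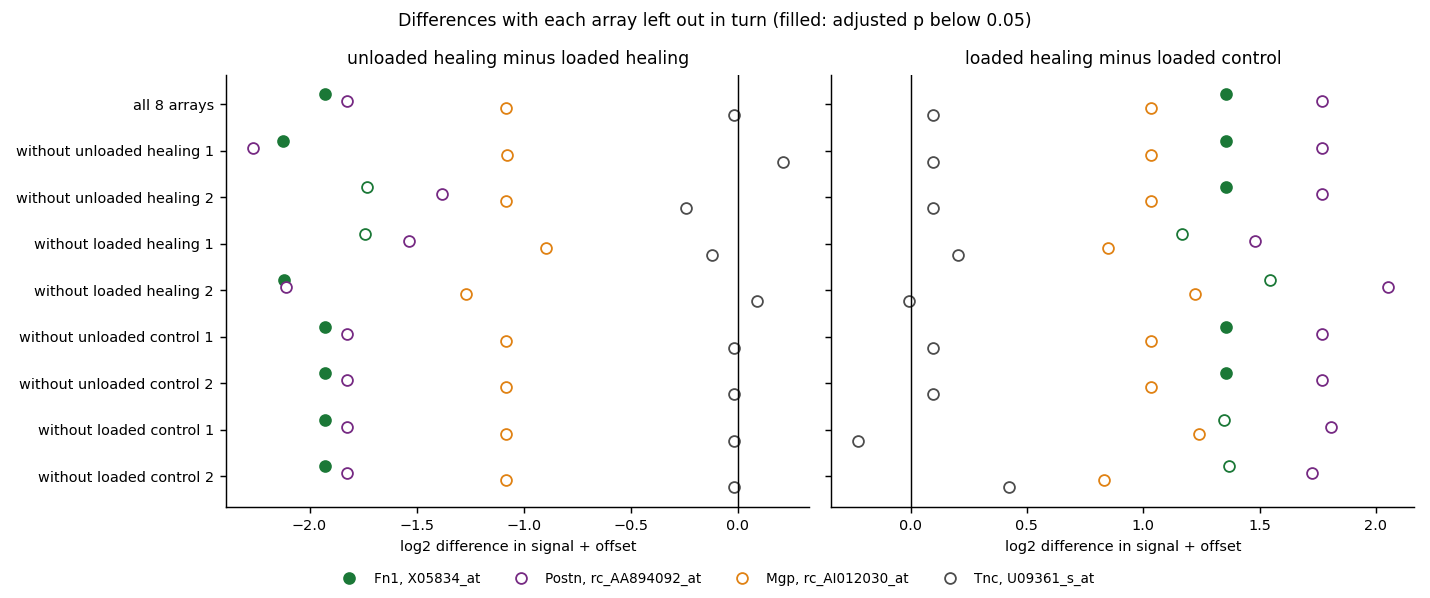
Log2 differences of the brightest probe set of each gene with all 8 arrays and with each array left out, for unloaded against loaded healing and for loaded healing against loaded control. Filled points mark an adjusted p below 0.05. Fn1, Postn and Mgp stayed on 1 side of 0 throughout, while Tnc crossed it.

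Genes that work with these 4 proteins were read from lists, with the brightest probe set of each gene. Of 16 tested receptors and adhesion partners, chiefly integrin subunits and syndecans, limma called 0 in any of the 6 comparisons, and their median log2 difference was -0.08 between unloaded and loaded healing, against 0.06 over all probe sets. Of 11 tested genes of the clot and its lysis 0 were called (median -0.15 in that comparison), of 10 tested mineral, vitamin K and BMP partners of Mgp 0 (median 0.04), and of 22 tested genes of TGF-beta and other inducers 0 (median 0.21), in any of the 6 comparisons. At an unadjusted p below 0.05, limma gave 0, 0, 1 and 2 genes of these 4 lists in unloaded against loaded healing, where 10.9% of all probe sets passed, and 1, 2, 0 and 3 in loaded healing against loaded control, where 11.7% did. In loaded healing against loaded control the medians of these 4 lists were 0.11, 0.10, -0.08 and -0.33, against -0.03 over all probe sets.

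The other matricellular and adhesive glycoproteins moved in both directions. Of 10 tested, 2 rose and 2 fell in loaded healing against loaded control, where 54 and 52 of all 5244 probe sets did. Osteopontin, Spp1, rose by 4.27 ± 0.33 and Sparcl1, a relative of Sparc, by 2.60 ± 0.54 on the log2 scale, whereas Comp, a pentameric thrombospondin of tendon and cartilage, had -2.74 ± 0.45 and Sparc, a collagen-binding glycoprotein, -1.66 ± 0.17 (limma adjusted p = 0.000223, 0.0431, 0.0134 and 0.00121). Under unloading in healing 1 rose and 2 fell, where 40 and 45 of all 5244 did. Sparc had 0.90 ± 0.17, Spp1 -3.78 ± 0.33 and Sparcl1 -2.72 ± 0.54 (limma adjusted p = 0.0344, 0.000518 and 0.0367). The directions of Spp1 and Sparcl1 in these 2 comparisons were those of Fn1 X05834_at, while Sparc ran the other way. The 2 comparisons share the loaded healing arrays. The median of the 10 was 0.37 in the first and -0.11 in the second. In unloaded against loaded control 3 fell (Sparc, Comp and Thbs4, named after their values were seen), where 6.22% of all probe sets did.

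Over the 6 arrays other than the unloaded controls, the brightest probe sets of Fn1 and Postn had a Pearson correlation of 0.95, Fn1 and Mgp 0.93 and Postn and Mgp 0.94, while Tnc had -0.03 with Fn1, -0.12 with Postn and -0.12 with Mgp. These are descriptions over 6 arrays that share 3 groups. The genes most like each of the 4 were sought among 4169 tested probe sets of other genes by the same measure. For Fn1 they were Mpc1, a subunit of the mitochondrial pyruvate carrier (0.99, and 0.97 over all 8 arrays), Vim, the intermediate filament protein of mesenchymal cells (0.99 and 0.91), and the secreted glycoprotein Fstl1 (0.99 and 0.93). For Postn they were the splicing factor Srsf2 (0.99 and 0.93), the actin-sequestering thymosin Tmsb4x (0.99 and 0.91) and Oaz1, which restrains polyamine synthesis (0.99 and 0.94).

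The likeness to Fn1 and Postn was of shape and not of size. Vim read 6418 and 3995 in unloaded healing, 18919.6 and 13964 in loaded healing, 162.4 and 35.3 in unloaded control and 6735 and 6930.5 in loaded control, and thus stood lower in the unloaded controls, relative to the other groups, than Fn1 did. For Mgp the genes were Dcakd (0.99, and 0.51 over all 8 arrays), the class I histocompatibility gene RT1-CE12 (0.99 and 0.77) and the adaptor protein Ywhah (0.99 and 0.90). Dcakd read 529.2 and 535.9 in unloaded control, within its range of 475 to 563 in loaded control, where Mgp was low.

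For Tnc the genes were Atp6v1g3, a proton pump subunit (0.99 and 0.89), Nnat (0.99 and 0.67) and the nucleolar protein Nolc1 (0.99 and 0.92). In these 3 and in Tnc U09361_s_at, the second array read higher than the first in unloaded healing, loaded healing and loaded control, so the likeness lay in the difference between arrays of a group. Atp6v1g3, for example, read 212.8 and 499.6 in unloaded healing, 321.4 and 411 in loaded healing and 147.6 and 514.5 in loaded control. Nothing in the labels gives the array number a meaning.

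**Figure D4:**
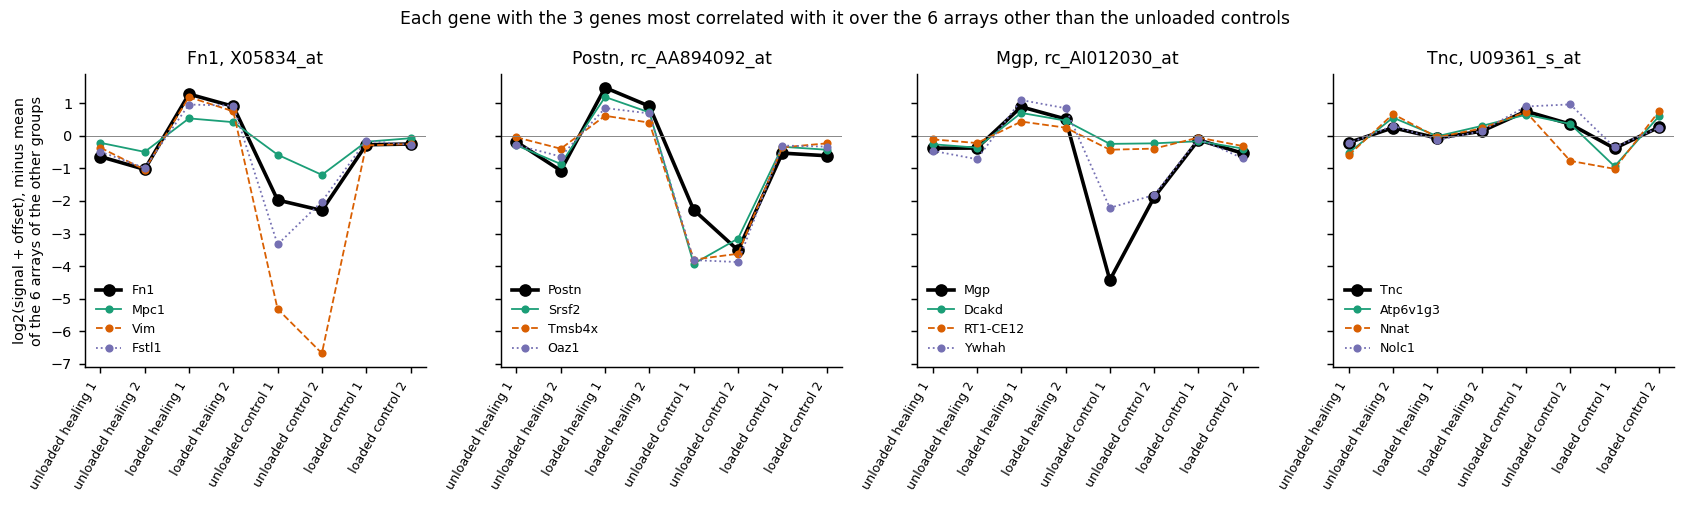
Log2 signal plus offset of each gene's brightest probe set (black) and of the 3 genes most correlated with it over the 6 arrays other than the unloaded controls, each minus its mean over those 6 arrays. Fn1, Postn and Mgp peak in loaded healing with their companions, while the Tnc panel alternates between the first and second array of a group.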

How the data were processed

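The authors deposited 1 table of linear signal intensity per probe set for 8799 probe sets on 8 arrays. The intensity values had already been scaled, since the 2% trimmed mean was 500.3 to 500.6 on every array. The software that made them is not given in the sources used here, and 0 columns were left out. Gene symbols were read from the platform's probe table, in which 7018 probe sets carry 1 symbol, 308 several and 1473 none.

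After 59 control probe sets were removed, 45.8 (percentile 10 of the signals) was added to each value, log2 was taken, and probe sets in the lowest 40% by mean were dropped, leaving 5244. A model with 1 mean per group was fitted to all 8 arrays with limma 3.58.1 in R 4.3.3, with variances that follow intensity (4 residual and 5.81 prior degrees of freedom). Tests were two-sided and adjusted by Benjamini-Hochberg within each of 6 comparisons, with a threshold of 0.05. In simulated data, true changes of 2 log2 units were recovered at 72% for unloaded against loaded healing, 56% for loaded healing against loaded control and 42% for unloaded healing against loaded control, and changes of 1 log2 unit at 16%, 18% and 8%. Each size of change was given to 50 of the 5244 probe sets, with independent noise at the variances fitted to all 8 arrays. False calls were 5.37%, 6.52% and 6.25% of the calls in the same order of comparisons. Recovery depends on the share of probe sets changed, so these percentages need not hold for the real data. The number of arrays limits the precision.

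Every probe set of the 4 genes was reported. Of each related list, members called in a comparison without the unloaded controls were named, up to 4 per list, smallest adjusted p first. Likeness was the highest Pearson correlation over 6 arrays, 3 genes each. Members, lists and rules were chosen with earlier results of these data known. Alternatives were quantile, median and spike-in scaling, other offsets, filters and variance priors, a replicate block, fewer groups, and each array left out.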

Additional observations from a re-analysis of the deposited data

How the results depend on the processing

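Of the 36 log2 differences of the 6 tested probe sets, recomputed under up to 20 alternatives each (690 values), 626 kept direction and side of the threshold, 40 lost a call, 4 gained one and 20 changed sign. The causes were not tested. Probe sets called in loaded healing against loaded control numbered 1 of 6, and 0 with median centring, with no filter and with no intensity trend, and 0 to 1 with single arrays left out. In unloaded healing against unloaded control there were 3, but 0 with the compared groups only, 1 with no filter, 1 with no intensity trend and 2 with the larger offset, and 0 to 3 with arrays left out. In unloaded against loaded healing there was 1, but 0 with no intensity trend, 2 (X05834_at and Mgp) with the compared groups only and 2 without the unloaded control group, and 0 to 1 with arrays left out. In unloaded against loaded control there were 3, but 1 with the compared groups only, 2 with the larger offset and 2 with no filter (Postn lost in both), 2 with no intensity trend (Mgp lost), 4 with quantile normalization (Tnc gained) and 1 to 3 with arrays left out. The interaction had 0, and 0 to 1 with arrays left out. Unloaded healing against loaded control had 0 under each alternative run.

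The sign changes were all of uncalled values. The X05834_at interaction became 0.22 with quantile normalization and 0.16 with median centring, and the Postn interaction -0.032 with spike-in scaling and -0.21 with the larger offset. Mgp in unloaded healing against loaded control became 0.034 with quantile normalization, and Tnc -0.0087 with spike-in scaling. With arrays left out, the lowest and highest values were -0.16 and 0.38 for U82612cds_at in loaded healing against loaded control and -0.92 and 0.064 in unloaded healing against unloaded control. They were -0.25 and 0.14 for the X05834_at interaction and -0.12 and 1.12 for that of Postn. In unloaded healing against loaded control they were -0.25 and 0.16 for Mgp, -0.50 and 0.38 for Postn and -0.24 and 0.41 for Tnc. For Tnc they were -0.23 and 0.42 in loaded healing against loaded control and -0.24 and 0.21 in unloaded against loaded healing.

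The total of called probe sets ran from 27 to 126 (106 in the main setting) for loaded healing against loaded control, from 309 to 622 (391) for unloaded healing against unloaded control, from 16 to 137 (85) for unloaded against loaded healing, from 282 to 590 (357) for unloaded against loaded control, from 0 to 7 (4) for unloaded healing against loaded control and from 215 to 331 (254) for the interaction. With spike-in scaling the median of all probe sets moved to -0.40 in unloaded against loaded healing and to 0.34 in loaded healing against loaded control, where the split was 84 higher and 22 lower, against 54 and 52. In unloaded against loaded healing it was 18 and 119, against 40 and 45. With quantile normalization the split was 388 and 234, against 336 and 55, for unloaded healing against unloaded control, 205 and 385, against 31 and 326, for unloaded against loaded control, and 251 and 80, against 237 and 17, for the interaction, which had 184 and 48 with spike-in scaling. Relative to those medians, X05834_at kept its direction. The replicate block changed none of the 6 call counts for the 4 genes. Deviations of same-numbered arrays, unpaired by the labels, correlated at 0.16 to 0.20 without the unloaded controls and 0.0008 to 0.014 with those.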

Other observations

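Kdr, a vascular endothelial growth factor receptor, was noticed after its values were seen. Its brightest probe set read 244.7 and 3546 in unloaded healing, 256.9 and 3450.2 in loaded healing, 2647 and 3724 in unloaded control and 130.9 and 3104.5 in loaded control, so that the second array exceeded the first in all 4 groups, least in unloaded control. U15550_at of Tnc also read higher on the second array in all 4 groups, at 109 against 54.9 in unloaded healing and 343 against 75.8 in loaded control.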
